A study of Mus musculus with 2 samples.

Results

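Notch signaling was described here through 10 genes measured in single cells of the mouse anterior eye segment, namely the ligands Jag1, Jag2, Dll1 and Dll4, the receptors Notch1, Notch2, Notch3 and Notch4, and the targets Hes1 and Hey1. They were taken by symbol, and each symbol matched 1 of the 32285 genes of the count matrices. NC-Foxc2-/- mice (genotype Foxc2 flox/flox;Wnt1Cre+, labelled NC-Foxc2-KO) carry Wnt1-Cre, which acts in the neural crest lineage and so was not made to delete Foxc2 in vascular endothelial, epithelial or blood cells. Control mice (Foxc2 flox/flox) have the same floxed Foxc2 alleles and no Cre in their label. Both groups have a mixed strain background and an age of 4 wk in the labels (3 to 4 wk in the methods), and the NC-Foxc2-/- mice were those with a moderate eye phenotype. Tissue without the iris was pooled from 4 to 6 mice per group and gave 1 library each, so that values of single mice are not known, the groups cannot be tested against each other, and every difference below is one between 2 libraries.

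Notch receptors are single-pass membrane proteins that are bound by Jagged and Delta-like ligands on a neighboring cell. Binding lets proteases cut the receptor, and its released intracellular domain joins the DNA-binding protein RBPJ in the nucleus to switch on repressors of the HES and HEY families. The pathway is known for artery specification and sprouting control in endothelium, for the maintenance of mural cells on small vessels, and for cell fate in the corneal epithelium.

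The libraries held 10872 NC-Foxc2-/- cells and 10773 control cells after removal of cells with more than 8% mitochondrial UMIs (unique molecular identifiers, each standing for 1 captured transcript). Total depth was 94644512 UMIs in NC-Foxc2-/- cells and 119599692 in control cells, with a median of 6517 UMIs per cell in NC-Foxc2-/- and 7663 in control. The trabecular meshwork clusters TM-1, TM-2 and TM-3, the uveal meshwork, fibroblasts and endothelial cells carry the names of the study, and the other classes were rebuilt from the counts and called "-like" after fixed markers. In all, 16 classes had at least 50 cells in each library, and the markers of each were all detected in both libraries. Conjunctival epithelial-like cells (26 in NC-Foxc2-/- and 447 in control) and corneal endothelial-like cells (9 in NC-Foxc2-/- and 168 in control) did not reach that number. Foxc2 UMIs were fewer in NC-Foxc2-/- cells of the meshwork and mural classes, with ratios of 0.189 in TM-3 to 0.222 in TM-1 and of 0.0193 in pericyte-like cells. The Foxc2 ratio was also 0.184 in endothelial cells (8 UMIs in NC-Foxc2-/- and 56 in control), in which Wnt1-Cre is not thought to act. Of the control UMIs, 36 lay in the study's cluster of Schlemm's canal and lymphatic endothelial cells. That cluster made up 9.09% of NC-Foxc2-/- and 40.6% of control endothelial cells. Its own Foxc2 ratio was 0.377, from 3 UMIs in NC-Foxc2-/- and 36 in control. Blood endothelial cells had a ratio of 0.245, from 5 UMIs in NC-Foxc2-/- and 20 in control. The part of the cell makeup in the endothelial Foxc2 difference was not tested. In keratocyte-like cells, which come from the neural crest, the Foxc2 ratio was 2.41.

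The members differed in the class in which they led, and most of the leads held in both libraries. Levels are given as CPM, the UMIs of a gene among 1000000 UMIs of the class. Their exact 95% intervals are of the Poisson kind, and the order below is that of both libraries summed. Levels of different genes are not compared. Dll4, Notch4, Notch1 and Jag2 were highest in endothelial cells, Notch3 in pericyte-like cells, Notch2 in keratocyte-like cells, Dll1 in corneal epithelial-like cells, Hes1 in Schwann cell-like cells, and Jag1 and Hey1 in TM-1. Of these 10 leading classes, 8 were the same in each library taken alone, and the exceptions were Jag1 and Hey1, whose leading class overlapped the next in the summed libraries. In erythrocyte-like cells, which should lack all 10 genes, no member passed 4 CPM in either library. Erythrocyte markers alone summed to 948100 CPM in NC-Foxc2-/- and 958100 CPM in control there, which keeps the CPM of any other gene low. The low levels in that class are thus no measure of free RNA.

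**Figure D1:**
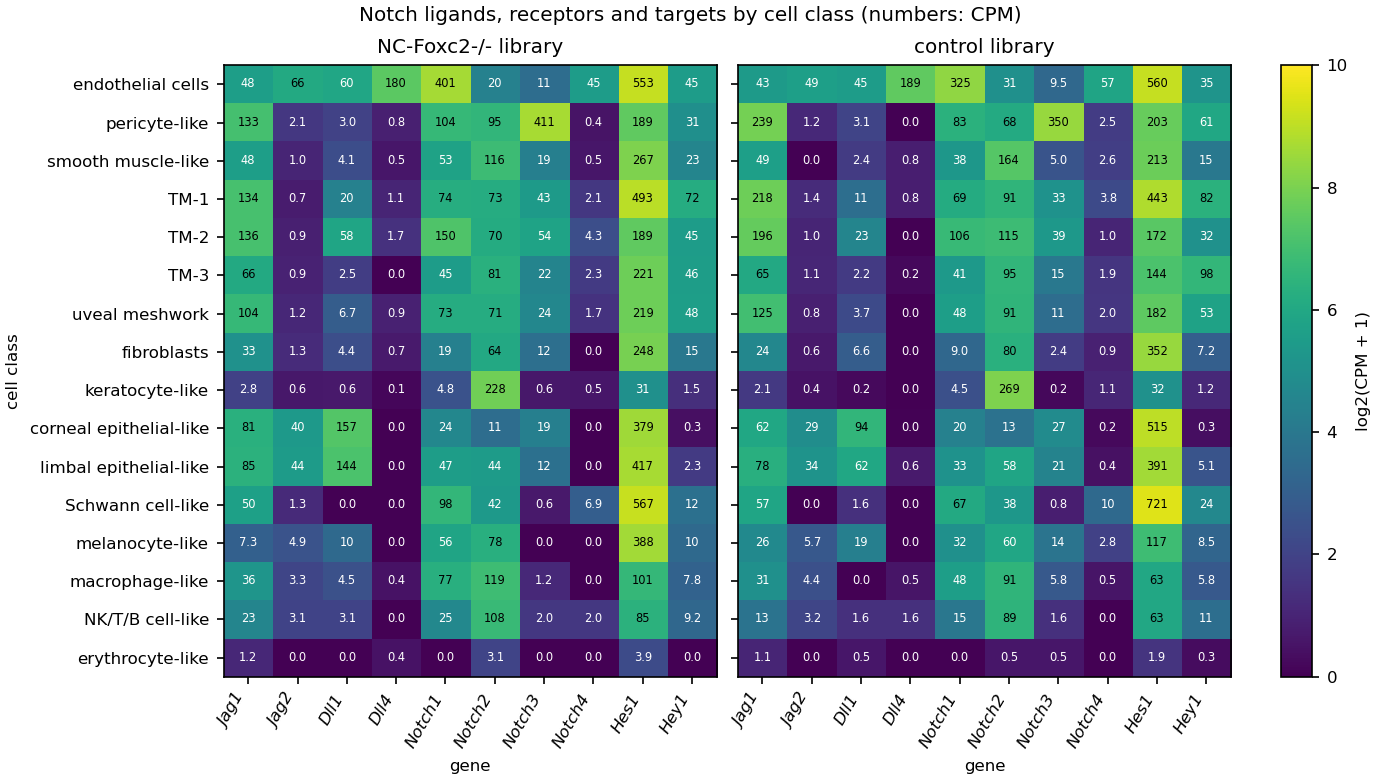
Heat map of the level of each of the 10 genes (columns) in each of the 16 cell classes (rows), in NC-Foxc2-/- (left) and control (right). Color is log2(CPM + 1) and the printed numbers are CPM. Brighter color means a higher level. The brightest cells of Dll4 and Notch4 sit in the endothelial row of both libraries and those of Notch3 in the pericyte-like row.

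The question for each class was how far the members differed between NC-Foxc2-/- and control cells. A gene was read as higher in a class from a CPM ratio (NC-Foxc2-/- over control) of 2 upward and as lower from 0.5 downward, provided that the libraries together held 50 of its UMIs or more. The rule goes by size alone, without a test. The exact conditional binomial 95% intervals of the ratios, in square brackets, count sampling of UMIs and leave out any spread between mice or between libraries. Of the 160 pairs of member and class, 86 had enough UMIs, in 15 classes. Past the rule were 10 pairs, 8 higher and 2 lower, or 11.6% of the 86, against 6.36% of the 119357 pairs of any gene and these classes. The median ratio of the 86 pairs was 1.19, and 64% of them lay above 1, against 48.8% of the pairs of all genes. When each cell was thinned to 1000 UMIs, the median was 0.982, over only those pairs that still had 50 UMIs or more. The median log2 ratio of all genes in a class lay between -0.156 and 0.0641, and its largest shift was in limbal epithelial-like cells.

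The members past the rule were spread over 7 classes, and fibroblasts had the most. In fibroblasts 3 of 6 members were past it, all higher, against 10.9% of all genes there. The fibroblasts' own markers summed to 6844 CPM in NC-Foxc2-/- and 10600 CPM in control, and trabecular beam markers in them to 627 CPM in NC-Foxc2-/- and 338 CPM in control, all 5 of each list being detected in both libraries. The part of either in the fibroblast differences was not tested. The share was 1 of 7 in TM-2 (higher, 4.65% of all genes), 1 of 6 in TM-3 (lower, 5.93%), 1 of 6 in the uveal meshwork (higher, 3.54%) and 1 of 6 in smooth muscle-like cells (higher, 3.94%). Limbal epithelial-like cells had 2 of 8, 1 in each direction (8.06%), and melanocyte-like cells 1 of 3, higher (17.1%). In the other 8 classes no member was past the rule. These were endothelial cells (0 of 9, against 7.12% of all genes), pericyte-like cells (0 of 6, 9.45%), TM-1 (0 of 7, 3.94%), corneal epithelial-like cells (0 of 7, 4.12%), keratocyte-like cells (0 of 5, 3.51%), Schwann cell-like cells (0 of 4, 3.96%), macrophage-like cells (0 of 4, 6.39%) and NK/T/B cell-like cells (0 of 2, 7.94%). With so few members per class, these shares describe the members and set no class apart from the others.

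**Figure D2:**
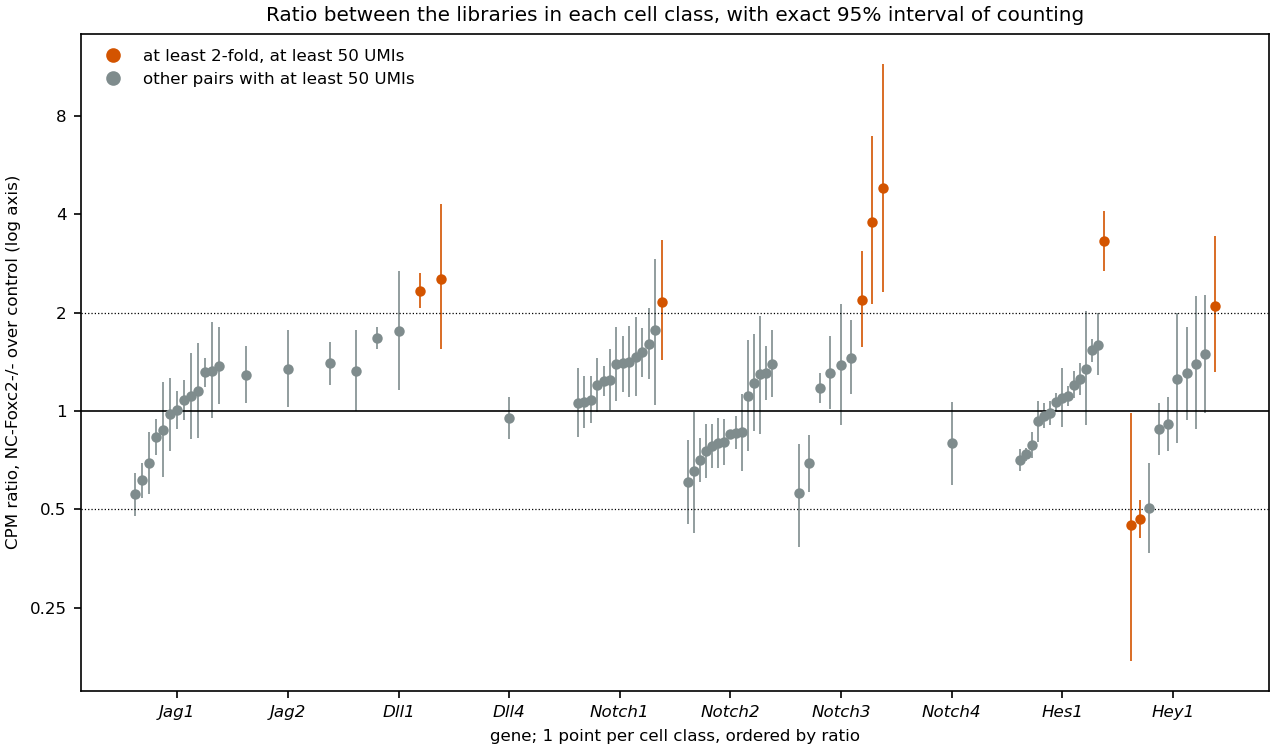
CPM ratio, NC-Foxc2-/- over control, on a log axis for each of the 86 pairs of gene and class with at least 50 UMIs, as points with the exact 95% interval of counting. Orange points are the 10 pairs past 2-fold (dotted lines), and the line at 1 marks equal levels. All 14 points of Notch1 lie above 1, and the highest point is Notch3 in fibroblasts at 4.80.

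Jag1 lies at chr2:137081456-137116644 on the minus strand (mm10), and Dll4 at chr2:119325784-119335962 on the plus strand. Their promoter sequences (RefSeq, GRCm38.p6, 250 bases before to 50 after the start site) are shown because both hold the class C site bound by HES and HEY repressors, CACGCG on either strand, in capitals. They are set beside Hey2, a further HEY target whose promoter has the RBPJ core TGGGAA, also on either strand and in capitals. The windows are chr2:137116471-137116770 (minus) for Jag1, chr2:119325534-119325833 (plus) for Dll4 and chr10:30842734-30843033 (minus) for Hey2.
Jag1: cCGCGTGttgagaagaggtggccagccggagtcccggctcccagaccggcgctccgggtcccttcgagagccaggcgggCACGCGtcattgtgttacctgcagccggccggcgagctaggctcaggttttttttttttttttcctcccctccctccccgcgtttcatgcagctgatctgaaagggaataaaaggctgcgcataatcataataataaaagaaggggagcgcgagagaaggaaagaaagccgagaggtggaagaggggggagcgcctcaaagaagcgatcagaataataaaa
Dll4: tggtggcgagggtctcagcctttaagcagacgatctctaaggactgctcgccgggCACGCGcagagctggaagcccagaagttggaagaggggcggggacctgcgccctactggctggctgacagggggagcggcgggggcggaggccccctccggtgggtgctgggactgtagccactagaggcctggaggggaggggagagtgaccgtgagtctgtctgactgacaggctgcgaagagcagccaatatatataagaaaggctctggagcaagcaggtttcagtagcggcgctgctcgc
Hey2: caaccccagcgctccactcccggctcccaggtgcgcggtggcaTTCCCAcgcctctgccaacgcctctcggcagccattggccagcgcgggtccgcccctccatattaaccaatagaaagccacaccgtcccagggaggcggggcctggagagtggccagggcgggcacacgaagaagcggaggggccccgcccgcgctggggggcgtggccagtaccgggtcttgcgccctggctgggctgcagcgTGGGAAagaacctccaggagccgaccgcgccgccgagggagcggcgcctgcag

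Counted from the start site, the class C sites begin at -249 and -171 in Jag1 and at -195 in Dll4, and the RBPJ cores at -207 and -3 in Hey2, with no overlap between matches. Promoter entries were matched for 8 of the 10 members by symbol, with 2 for Dll1, which makes 9 promoters, and Hes1 and Hey1 had no entry. The class C site was found in the promoters of 5 members (Jag1, Jag2, Dll1, Dll4 and Notch2) and in 9.27% of 32851 mouse promoters of the same length. The RBPJ core was found in 0 of the 9 member promoters and in 25.6% of all. The E-box CACGTG (7.15% of all) and the forkhead motif GTAAACA (3.65% of all) were likewise in 0 of 9. A match describes letters in this window and is no evidence of binding.

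Jag1, the Jagged ligand with the widest expression here, had at least 50 UMIs in 13 classes and was past the rule in none of them. Its levels were highest in cells at and around the outflow tract and on vessels, with 134 CPM in NC-Foxc2-/- TM-1 cells against 218 CPM in control TM-1 cells. Pericyte-like cells had 133 CPM in NC-Foxc2-/- and 239 CPM in control. TM-2 had 136 CPM in NC-Foxc2-/- and 196 CPM in control. These 3 classes could not be ordered among themselves in the summed libraries, since their intervals overlapped, and all were above the uveal meshwork (104 CPM in NC-Foxc2-/- and 125 CPM in control). In each of the 4 classes the NC-Foxc2-/- library was the lower one, with ratios of 0.614 [0.542 to 0.694] in TM-1, 0.556 [0.478 to 0.647] in pericyte-like cells, 0.692 [0.557 to 0.859] in TM-2 and 0.832 [0.732 to 0.945] in the uveal meshwork. None of them reached 2-fold, except that TM-1 did when each cell was thinned to 1000 UMIs (0.439), a setting in which the uveal meshwork turned to 1.08. The pericyte markers themselves summed to 5350 CPM in NC-Foxc2-/- and 7447 CPM in control pericyte-like cells, smooth muscle markers in them to 14230 CPM in NC-Foxc2-/- and 9867 CPM in control, and endothelial markers to 96.6 CPM in NC-Foxc2-/- and 286 CPM in control. Of these lists 5 of 5, 6 of 6 and 6 of 7 markers were detected in each library. Their part in the pericyte-like differences of Jag1, Hey1, Hey2 and Nrarp was not tested.

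In the other meshwork cluster, TM-3, whose markers are those of juxtacanalicular cells, Jag1 had nearly equal levels of 65.8 CPM in NC-Foxc2-/- and 65.2 CPM in control. Its ratio of 1.01 [0.883 to 1.15] fell below 1 in 4 of 10 alternatives, namely scaling by the median gene ratio (0.9696), rebuilt classes (0.979), cells weighted equally (0.887) and thinning (0.848). Epithelial cells went the other way from TM-1, with 81.1 CPM in NC-Foxc2-/- corneal epithelial-like cells and 61.8 CPM in control ones, a ratio of 1.31 [1.18 to 1.45]. No difference between these 2 ratios was tested. The share of TM-1 cells with a Jag1 UMI was 41.9% in NC-Foxc2-/- and 58.0% in control. After thinning each cell to 1000 UMIs it was 13.5% in NC-Foxc2-/- (10.6 to 16.8%, exact Clopper-Pearson) and 19.4% in control (16.3 to 22.7%). Erythrocyte-like cells had median depths of 4085 UMIs in NC-Foxc2-/- and 4013 in control, most of them of erythrocyte markers. Unthinned, 0.464% of their NC-Foxc2-/- cells and 0.409% of their control cells had a Jag1 UMI, far below the unthinned TM-1 shares.

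Dll1, a Delta-like ligand, was the ligand with the most pairs past the rule. Its levels were highest in the epithelium of the ocular surface, with 157 CPM in NC-Foxc2-/- corneal epithelial-like cells and 93.99 CPM in control ones, and then in limbal epithelial-like cells. In the limbal class it was higher in NC-Foxc2-/- cells, at 144 CPM against 61.8 CPM in control, a ratio of 2.34 [2.07 to 2.64] from 448 UMIs in NC-Foxc2-/- and 673 in control. The same gene had a ratio of 1.67 [1.55 to 1.81] in corneal epithelial-like cells, below the rule. In TM-2 it was higher too, at 57.6 CPM in NC-Foxc2-/- and 22.7 CPM in control, a ratio of 2.53 [1.55 to 4.31] from 67 UMIs in NC-Foxc2-/- and 22 in control. TM-1 lay just under the rule with 19.98 CPM in NC-Foxc2-/- and 11.3 CPM in control, a ratio of 1.76 [1.16 to 2.69]. It was past the rule with rebuilt classes (2.34).

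All 5 classes with enough Dll1 UMIs had ratios above 1, except that TM-1 fell below it in cells thinned to 1000 UMIs. Over all kept cells of a library, the Dll1 level was nevertheless 19.4 CPM in NC-Foxc2-/- and 27.4 CPM in control. The NC-Foxc2-/- library held 365 corneal epithelial-like and 163 limbal epithelial-like cells, and the control library 1061 and 526. In cells thinned to 1000 UMIs, 12.3% (7.66 to 18.3%) of NC-Foxc2-/- and 4.56% (2.94 to 6.71%) of control limbal epithelial-like cells had a Dll1 UMI, and the unthinned shares were 76.1% in NC-Foxc2-/- and 53.6% in control. Dll1 was seen in 0 of 586 NC-Foxc2-/- and 0 of 895 control erythrocyte-like cells thinned in the same way, which allows shares of up to 0.512% in NC-Foxc2-/- and 0.335% in control. Nearly all UMIs left in those cells were of erythrocyte markers, so that these zeros do not measure free RNA. Scrublet called 33.5% of limbal epithelial-like cells doublets, and without them the limbal ratio was 2.47. With clustering at resolution 0.4, where the class held 1444 Dll1 UMIs in NC-Foxc2-/- and 2652 in control, it was 1.84 and no longer past the rule. At that resolution no separate corneal epithelial-like class was found, and the class named limbal held 2122 cells, so that this value is not one of limbal cells alone. The corneal epithelial markers (Krt12, Aldh3a1, Slurp1 and Lypd2) summed to 6322 CPM in the NC-Foxc2-/- limbal class and 10960 CPM in the control one, and their part in the Dll1 difference was not tested.

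Jag2, the second Jagged ligand, was seen at depth in only 3 classes, and its level was near 0 elsewhere. Endothelial cells had 66.1 CPM in NC-Foxc2-/- and 49.1 CPM in control, a ratio of 1.35 [1.03 to 1.77]. Limbal epithelial-like cells had 44.2 CPM in NC-Foxc2-/- and 34.2 CPM in control, and corneal epithelial-like cells 40.2 CPM in NC-Foxc2-/- and 28.8 CPM in control. The epithelial classes overlapped in the summed libraries and lay below endothelial cells. All 3 ratios were above 1 with intervals that exclude 1, and none reached 2-fold. The limbal ratio was 0.759 in cells thinned to 1000 UMIs, from 4 UMIs in NC-Foxc2-/- and 17 in control.

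Dll4, the endothelial Delta-like ligand, was the most restricted of the members. Endothelial cells had 179.8 CPM in NC-Foxc2-/- and 189 CPM in control, 197 times the next class in the summed libraries. They made up 2.33% of NC-Foxc2-/- cells and 1.92% of control cells and held 85.6% (81.6 to 89.1%) of the Dll4 UMIs in NC-Foxc2-/- and 90.5% (87.5 to 93.0%) in control. The ratio between libraries was 0.9502 [0.818 to 1.103], which lay at 1 or on either side of it under the alternatives (0.765 to 1.22). No other class reached 50 Dll4 UMIs.

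**Figure D3:**
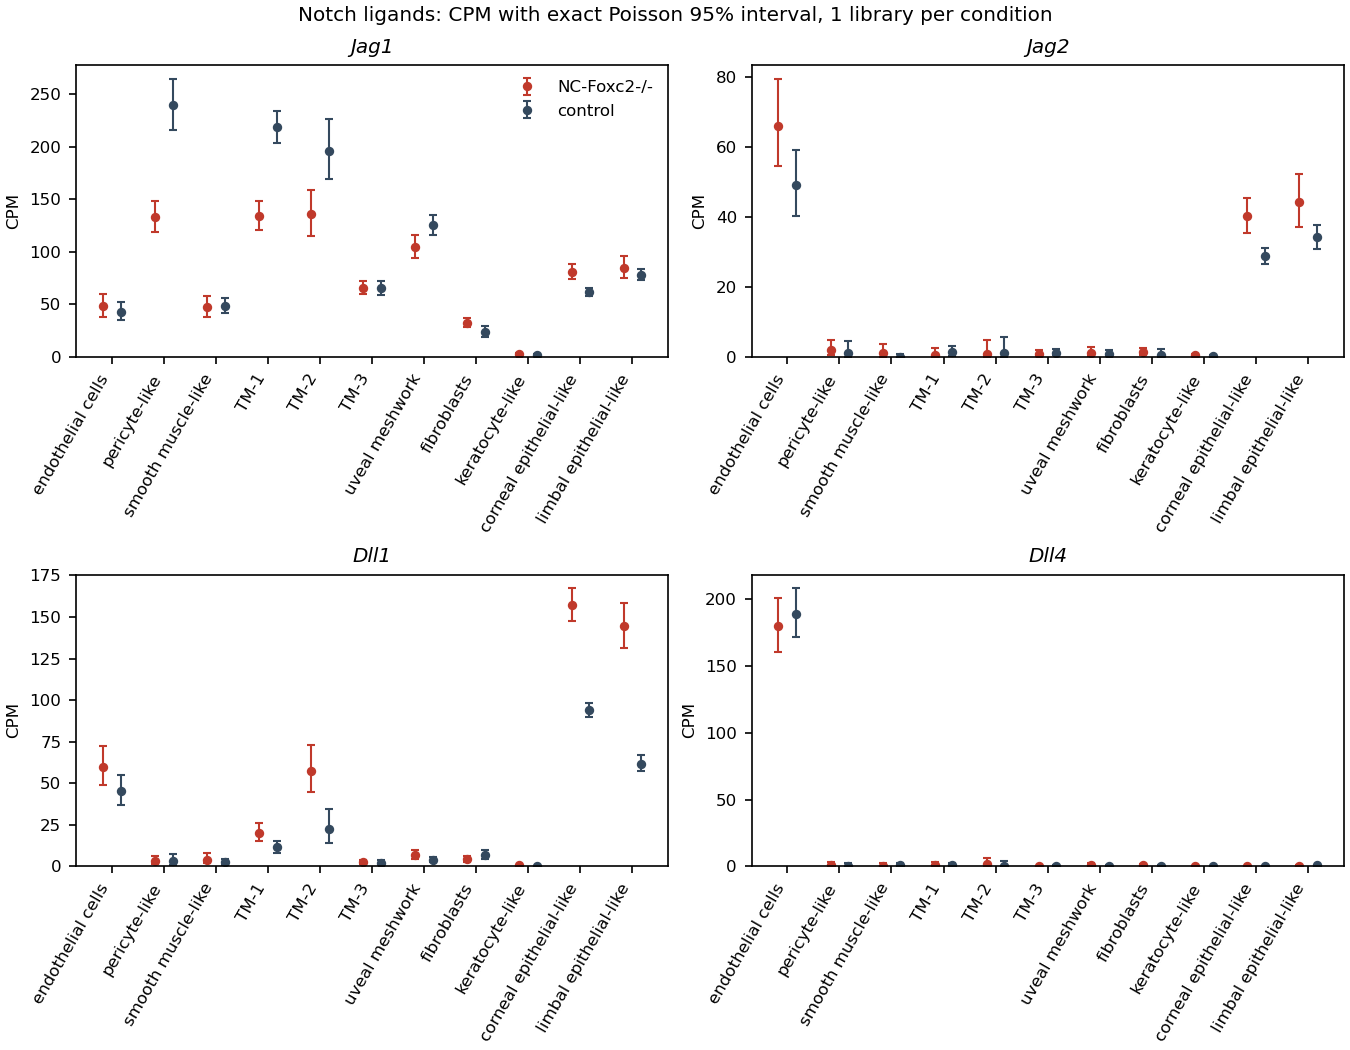
Level of the 4 ligands in CPM (vertical axes from 0) by cell class, in NC-Foxc2-/- (red, left of each pair) and control (dark, right), with the exact Poisson 95% interval of each library. Jag1 has ratios below 1 in TM-1, TM-2 and pericyte-like cells, none past 2-fold. Dll1 is past 2-fold upward in limbal epithelial-like cells and TM-2, while its ratio in corneal epithelial-like cells is 1.67. Dll4 stands at 179.8 CPM in NC-Foxc2-/- and 189 CPM in control endothelial cells and near 0 in the rest.

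Notch1, at chr2:26457903-26516663 on the minus strand, is the receptor with the broadest role across vessels and epithelia, and it led in endothelial cells. Its level there was 401 CPM in NC-Foxc2-/- and 325 CPM in control, a ratio of 1.23 [1.11 to 1.37]. TM-2 came next with 150.4 CPM in NC-Foxc2-/- and 106 CPM in control, then pericyte-like cells with 104 CPM in NC-Foxc2-/- and 83.4 CPM in control, whose interval overlapped that of Schwann cell-like cells. Notch1 was higher in NC-Foxc2-/- fibroblasts, with 19.4 CPM against 9.03 CPM in control, a ratio of 2.15 [1.43 to 3.33] from 116 UMIs in NC-Foxc2-/- and 30 in control. In cells thinned to 1000 UMIs the fibroblast ratio was 1.74, short of the rule, from 23 UMIs in NC-Foxc2-/- and 6 in control. Just outside the rule lay melanocyte-like cells with a ratio of 1.77 [1.04 to 2.92]. It was 3.12 with cells weighted equally, which is past the rule, and 5.13 after thinning, from 5 UMIs in NC-Foxc2-/- and 3 in control.

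The ratio of Notch1 was above 1 in 14 of the 14 classes with enough UMIs, and 10 of the 14 intervals lay wholly above 1. All 14 stayed above 1 under scaling by the median gene ratio. Other settings put TM-3, corneal epithelial-like and keratocyte-like cells below 1, which were among the smallest Notch1 ratios. Larger ratios were those of the uveal meshwork, with 72.96 CPM in NC-Foxc2-/- and 48.2 CPM in control (1.51 [1.27 to 1.799]), and of macrophage-like cells, with 77.4 CPM in NC-Foxc2-/- and 48.2 CPM in control (1.61 [1.25 to 2.07]). The classes share their 2 libraries, so that their ratios are not independent of each other. The share of all genes with intervals that exclude 1 was not computed, so that the count of Notch1 intervals has no background.

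Notch2, at chr3:98013527-98150361 on the plus strand, is the receptor known for roles in mesenchymal and immune cells. It led in keratocyte-like cells, with 228 CPM in NC-Foxc2-/- and 269 CPM in control, and these cells held 64.2% of all Notch2 UMIs in NC-Foxc2-/- and 53.6% in control. Smooth muscle-like cells followed with 116 CPM in NC-Foxc2-/- and 164 CPM in control. The NC-Foxc2-/- library was lower in both, with ratios of 0.849 [0.822 to 0.876] and 0.709 [0.607 to 0.827].

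No Notch2 pair was past the rule. Its intervals lay wholly below 1 in 9 classes, a count for which no share of all genes was computed. Of its 15 ratios, 10 were below 1. The lowest was TM-2, with 69.6 CPM in NC-Foxc2-/- and 115 CPM in control (0.607 [0.4503 to 0.816]), the same cluster in which Notch1 had a ratio of 1.41 [1.102 to 1.82]. Pericyte-like cells had the highest Notch2 ratio, with 94.9 CPM in NC-Foxc2-/- and 67.98 CPM in control (1.395 [1.11 to 1.77]), and macrophage-like cells the other interval above 1 (1.303 [1.08 to 1.58]). Thinning to 1000 UMIs put pericyte-like cells past the rule (2.04) and moved TM-3 to 1.03 and Schwann cell-like cells to 0.838. Macrophage-like cells were at 0.979 and Schwann cell-like cells at 0.893 with clustering at resolution 0.4, and NK/T/B cell-like cells at 0.942 with cells weighted equally. Scaling by the median gene ratio moved no Notch2 ratio across 1. Notch1 and Notch2 thus had opposite directions in TM-1, TM-2, TM-3, the uveal meshwork, fibroblasts, smooth muscle-like, limbal and corneal epithelial-like, keratocyte-like and endothelial cells, a difference that was not tested. The Notch1 intervals included 1 in TM-1 (1.07), TM-3 (1.08), corneal epithelial-like (1.2) and keratocyte-like cells (1.06), as did the corneal Notch2 interval (0.864). Thinning put Notch1 below 1 as well in corneal epithelial-like (0.981) and keratocyte-like cells (0.434), and in TM-3 it turned both genes, to 0.845 for Notch1 and 1.03 for Notch2.

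Notch3, at chr17:32120820-32166852 on the minus strand, is the receptor of mural cells. Pericyte-like cells had 411 CPM in NC-Foxc2-/- and 349.8 CPM in control, 8.15 times the next class in the summed libraries, with a ratio of 1.18 [1.06 to 1.31] that was 0.951 after thinning. They held 51.7% of the Notch3 UMIs of NC-Foxc2-/- cells and 23.1% of those of control cells, where the conjunctival epithelial-like class held 24.5% and the corneal epithelial-like class 23.5%. In cells thinned to 1000 UMIs, 32.1% of NC-Foxc2-/- and 28.4% of control pericyte-like cells had a Notch3 UMI (unthinned, 72.5% in NC-Foxc2-/- and 69.8% in control). In thinned erythrocyte-like cells Notch3 was seen in 0 of 586 NC-Foxc2-/- cells, which allows a share of up to 0.512%, and in 0.112% of control cells. As erythrocyte markers fill most UMIs of those cells, these shares do not measure free RNA.

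Outside pericytes the level of Notch3 was low, and that is where its pairs past the rule lay. In fibroblasts it was higher in NC-Foxc2-/- cells, with 11.6 CPM against 2.41 CPM in control, a ratio of 4.802 [2.31 to 11.6] from 69 UMIs in NC-Foxc2-/- and 8 in control. Smooth muscle-like cells had 18.9 CPM in NC-Foxc2-/- and 5.01 CPM in control, a ratio of 3.78 [2.12 to 6.96] from 37 UMIs in NC-Foxc2-/- and 19 in control. In the uveal meshwork the levels were 24.03 CPM in NC-Foxc2-/- and 10.96 CPM in control, a ratio of 2.19 [1.57 to 3.08] from 83 UMIs in NC-Foxc2-/- and 65 in control. All 3 classes were higher in NC-Foxc2-/-. The uveal pair was no longer past the rule in 2 of 10 alternatives, among them rebuilt classes, where its ratio was 1.84. The smooth muscle-like ratio lay between 2.59 and 10.04, with under 50 UMIs left in 3 of the alternatives. In fibroblasts the trabecular beam markers given above were also higher in NC-Foxc2-/-, and TM-1 and TM-2, which carry those markers, had Notch3 levels of 37.4 and 47.4 CPM in the summed libraries. Markers of pericytes, the cells in which Notch3 leads, summed to 161 CPM in NC-Foxc2-/- and 152 CPM in control fibroblasts. In the uveal meshwork they summed to 73.8 CPM in NC-Foxc2-/- and 75.9 CPM in control, and 4 of the 5 were detected in each library, as in fibroblasts. In smooth muscle-like cells they summed to 490 CPM in NC-Foxc2-/- and 296 CPM in control, with 4 of the 5 markers detected in NC-Foxc2-/- and 3 in control, and their part in the difference there was not tested. The epithelial classes went the other way, with ratios of 0.692 [0.564 to 0.844] in corneal and 0.5598 [0.384 to 0.794] in limbal epithelial-like cells, neither past the rule.

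Notch4, the receptor known from endothelium, at chr17:34564268-34588503 on the plus strand, reached 50 UMIs only in endothelial cells. Its level was 45.2 CPM in NC-Foxc2-/- and 56.8 CPM in control, a ratio of 0.797 [0.593 to 1.07] whose interval includes 1. Endothelial cells held 47.6% of all Notch4 UMIs in NC-Foxc2-/- and 47.4% in control. The next class, Schwann cell-like cells, had 6.89 CPM in NC-Foxc2-/- and 9.66 CPM in control.

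Hes1, at chr16:30064384-30067796 on the plus strand, encodes a basic helix-loop-helix repressor that Notch switches on in many tissues, and other signals also drive it. It was detected at depth in 15 classes. Schwann cell-like cells led with 567 CPM in NC-Foxc2-/- and 721 CPM in control, followed by endothelial cells with 553 CPM in NC-Foxc2-/- and 560.1 CPM in control. Corneal epithelial-like cells (379 CPM in NC-Foxc2-/- and 515 CPM in control) and TM-1 (493 CPM in NC-Foxc2-/- and 443 CPM in control) overlapped in the summed libraries and came after them. The small conjunctival epithelial-like class, outside this order, had 660.5 CPM in NC-Foxc2-/- and 565 CPM in control.

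Between the libraries Hes1 went both ways. It was higher in NC-Foxc2-/- melanocyte-like cells, with 388 CPM against 117 CPM in control, a ratio of 3.31 [2.67 to 4.09] from 159 UMIs in NC-Foxc2-/- and 207 in control. That class held 63 NC-Foxc2-/- and 183 control cells, and its melanocyte markers summed to 5158 CPM in NC-Foxc2-/- and 25840 CPM in control. A list of 10 immediate early genes summed to 13210 CPM in NC-Foxc2-/- and 8224 CPM in control. The part of either in the Hes1 difference was not tested. In TM-3 the levels were 221 CPM in NC-Foxc2-/- and 144 CPM in control (1.53 [1.41 to 1.66]), below the rule. The immediate early genes there summed to 8702 CPM in NC-Foxc2-/- and 7955 CPM in control. Fibroblasts had 248 CPM in NC-Foxc2-/- and 352 CPM in control (0.705 [0.653 to 0.762]), and corneal epithelial-like cells a ratio of 0.736 [0.704 to 0.769], with NC-Foxc2-/- the lower library in both.

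Hey1, at chr3:8663359-8667256 on the minus strand, encodes a repressor that is a Notch target in vessels and mesenchyme. Its leading classes were meshwork clusters, with 71.9 CPM in NC-Foxc2-/- TM-1 cells and 81.6 CPM in control ones, and its lead over TM-3 was within the counting intervals. In TM-3 Hey1 was lower in NC-Foxc2-/- cells, with 45.9 CPM against 98.4 CPM in control, a ratio of 0.466 [0.407 to 0.533] from 342 UMIs in NC-Foxc2-/- and 616 in control. The alternatives kept this ratio between 0.426 and 0.498. In cells thinned to 1000 UMIs, 4.53% (3.39 to 5.91%) of NC-Foxc2-/- and 8.08% (6.33 to 10.1%) of control TM-3 cells had a Hey1 UMI, and the unthinned shares were 16.7% in NC-Foxc2-/- and 30.9% in control. No Hey1 UMI was seen in 586 NC-Foxc2-/- and 895 control erythrocyte-like cells thinned in the same way, which allows shares of up to 0.512% in NC-Foxc2-/- and 0.335% in control. The limit from erythrocyte markers, given above for Dll1, holds here too.

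TM-1 and the uveal meshwork, by contrast, had Hey1 ratios of 0.881 [0.734 to 1.06] and 0.913 [0.752 to 1.11], with intervals that include 1. Pericyte-like cells lay just outside the rule with 30.9 CPM in NC-Foxc2-/- and 61.2 CPM in control (0.505 [0.368 to 0.691]), and past it in 3 alternatives, down to 0.469 at 5% mitochondrial UMIs. In fibroblasts Hey1 was higher in NC-Foxc2-/- cells, with 15.1 CPM against 7.23 CPM in control (2.09 [1.32 to 3.43], from 90 UMIs in NC-Foxc2-/- and 24 in control). In cells thinned to 1000 UMIs, which left 14 Hey1 UMIs in NC-Foxc2-/- and 6 in control, the fibroblast ratio was 1.06. Limbal epithelial-like cells were counted as lower from 7 UMIs in NC-Foxc2-/- and 55 in control, with 2.26 CPM in NC-Foxc2-/- and 5.05 CPM in control (0.447 [0.172 to 0.984]). After thinning, the limbal ratio rested on 2 UMIs in NC-Foxc2-/- and 1 in control and was 6.45, so that no direction can be read from it. Of the classes past the rule, TM-3 held the most Hey1 UMIs, and the Hes1 ratio in TM-3 was on the other side of 1.

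**Figure D4:**
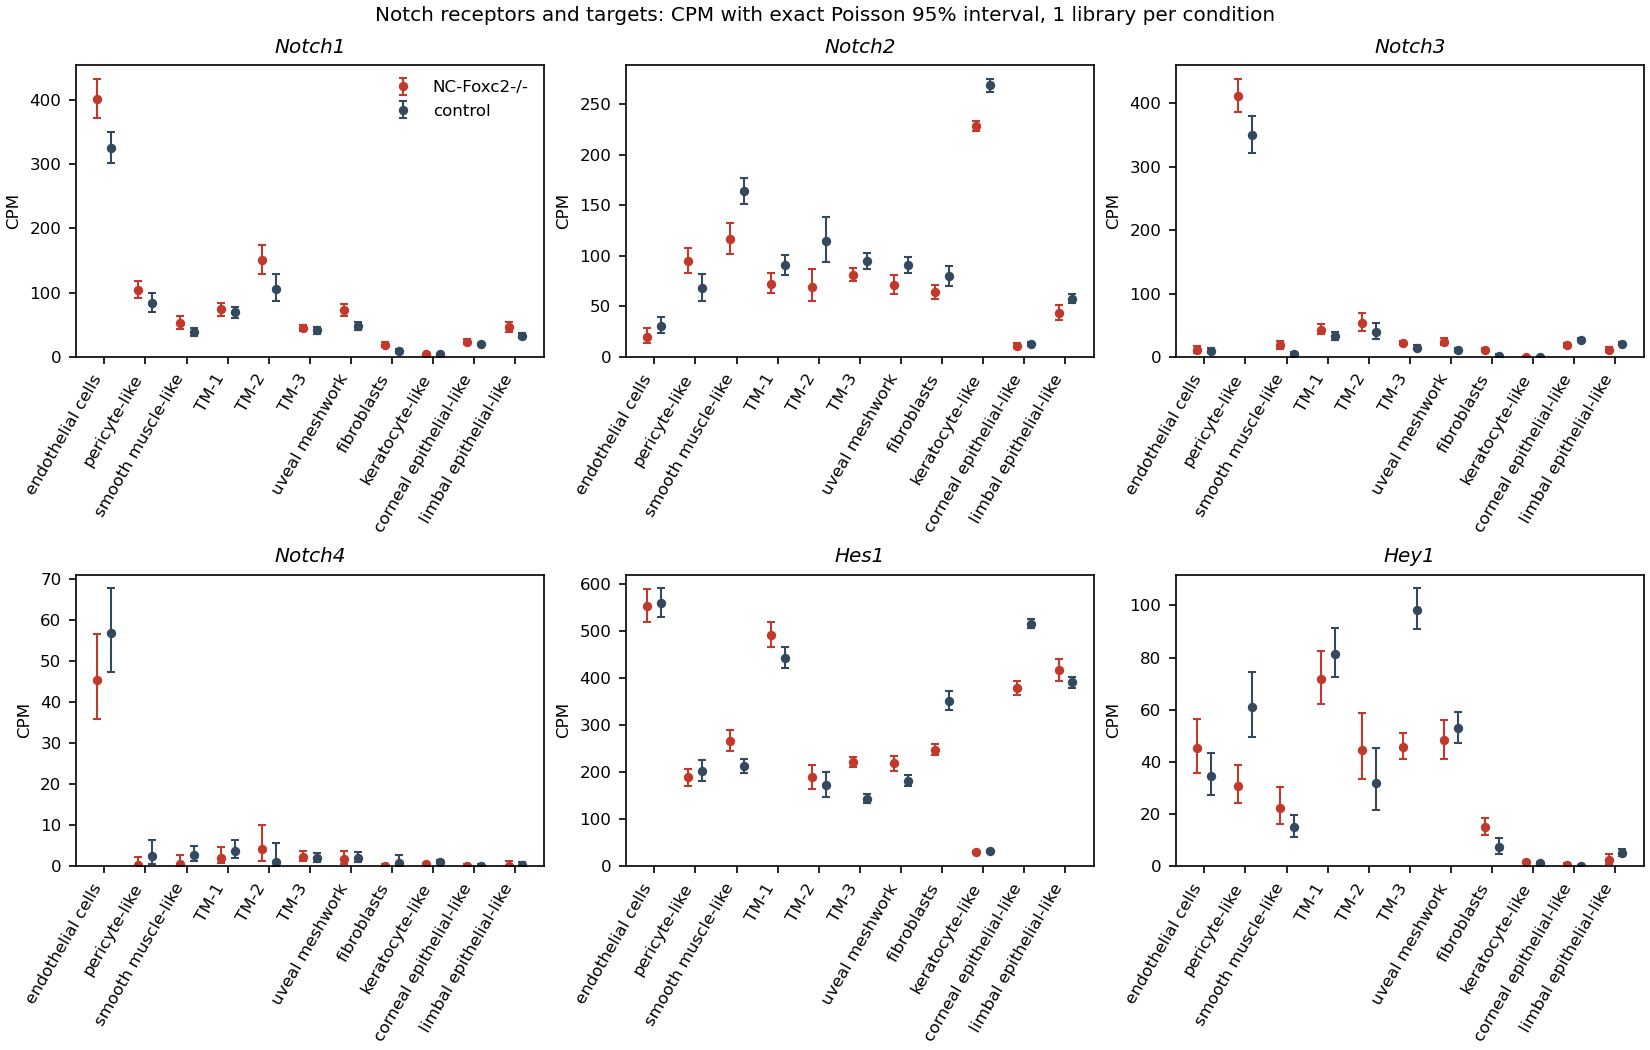
Level of the 4 receptors and 2 targets in CPM (vertical axes from 0) by cell class, in NC-Foxc2-/- (red, left of each pair) and control (dark, right), with the exact Poisson 95% interval of each library. Notch1 leads in endothelial cells, Notch2 in keratocyte-like cells and Notch3 in pericyte-like cells in both libraries, and Hey1 in TM-3 stands at 45.9 CPM in NC-Foxc2-/- and 98.4 CPM in control.

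Endothelial cells of the libraries differed in their makeup, and the part of this in the differences of Dll4, Notch4 and Jag1 was not tested. The study's cluster of Schlemm's canal (SC) and lymphatic endothelial cells (ECs) held 23 of 253 NC-Foxc2-/- endothelial cells (9.09%) and 84 of 207 control ones (40.6%). The other named clusters, BEC-1 to BEC-6, were joined as blood ECs, with 208 NC-Foxc2-/- and 123 control cells, and a cluster named NC-Foxc2-/- ECs had 22 cells, all of that library. In blood ECs 0 of 8 members were past the rule, against 6.87% of all genes, and in SC and lymphatic ECs 1 of 5, against 9.65%.

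In blood ECs Dll4 had 195 CPM in NC-Foxc2-/- and 254 CPM in control (0.769 [0.654 to 0.903]). Notch4 in the same cells had 49.02 CPM in NC-Foxc2-/- and 83.5 CPM in control (0.587 [0.429 to 0.798]). Both ratios lay below those of the whole endothelial class, and both intervals were wholly below 1, while neither was past the rule. Notch1 was nearly equal there, at 399 CPM in NC-Foxc2-/- and 393 CPM in control (1.01 [0.9003 to 1.14]), unlike in all endothelial cells. Hes1 had 588 CPM in NC-Foxc2-/- and 647 CPM in control (0.908 [0.825 to 0.9997]). Within BEC-3, the cluster with the highest Dll4 level, the values were 343 CPM in NC-Foxc2-/- and 479 CPM in control (0.716 [0.5501 to 0.9300]). BEC-2 had 169 CPM in NC-Foxc2-/- and 308 CPM in control (0.549 [0.345 to 0.888]), and BEC-5 240.2 CPM in NC-Foxc2-/- and 214 CPM in control (1.12 [0.728 to 1.68]), so that Dll4 was the lower one in NC-Foxc2-/- in BEC-3 and BEC-2 and not in BEC-5. The Dll4 ratios of BEC-1, BEC-4 and BEC-6 are not given here, so that no direction is claimed for the blood EC clusters in general.

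The blood ECs were themselves of unequal makeup. BEC-5 held 14 NC-Foxc2-/- and 43 control cells, while BEC-2 held 59 NC-Foxc2-/- and 12 control cells. BEC-4 held 51 NC-Foxc2-/- and 15 control cells, and corneal epithelial markers in it summed to 3334 CPM in NC-Foxc2-/- and 6492 CPM in control. In BEC-6, with 20 NC-Foxc2-/- and 17 control cells, Scrublet called 35.1% doublets. Pericyte markers there summed to 1496 CPM in NC-Foxc2-/- and 1681 CPM in control. Venous markers (Ackr1, Selp, Sele and Vwf) summed to 2923 CPM in NC-Foxc2-/- and 790 CPM in control blood ECs, and the choriocapillaris markers Ihh and Plvap to 1971 CPM in NC-Foxc2-/- and 3973 CPM in control. Immediate early genes summed to 18410 CPM in NC-Foxc2-/- and 10400 CPM in control. The part of any of these in the Dll4 and Notch4 differences, or in the endothelial ratios of Dll1 and Jag2, was not tested.

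SC and lymphatic ECs had lower Dll4 levels than blood ECs in both libraries, and lower Notch4 levels with intervals that overlapped in NC-Foxc2-/-. Dll4 was at 59.2 CPM in NC-Foxc2-/- and 83.2 CPM in control, and Notch4 at 16.1 CPM in NC-Foxc2-/- and 13.1 CPM in control. Jag1 was higher in the NC-Foxc2-/- cells of this cluster, with 151 CPM against 72.5 CPM in control, a ratio of 2.08 [1.28 to 3.302] from 28 UMIs in NC-Foxc2-/- and 61 in control, in 23 and 84 cells of these groups. Its Hes1 levels were 581 CPM in NC-Foxc2-/- and 418 CPM in control (1.39 [1.11 to 1.73]). The NC-Foxc2-/- values rest on 185889 UMIs in all, against 841710 in control.

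**Figure D5:**
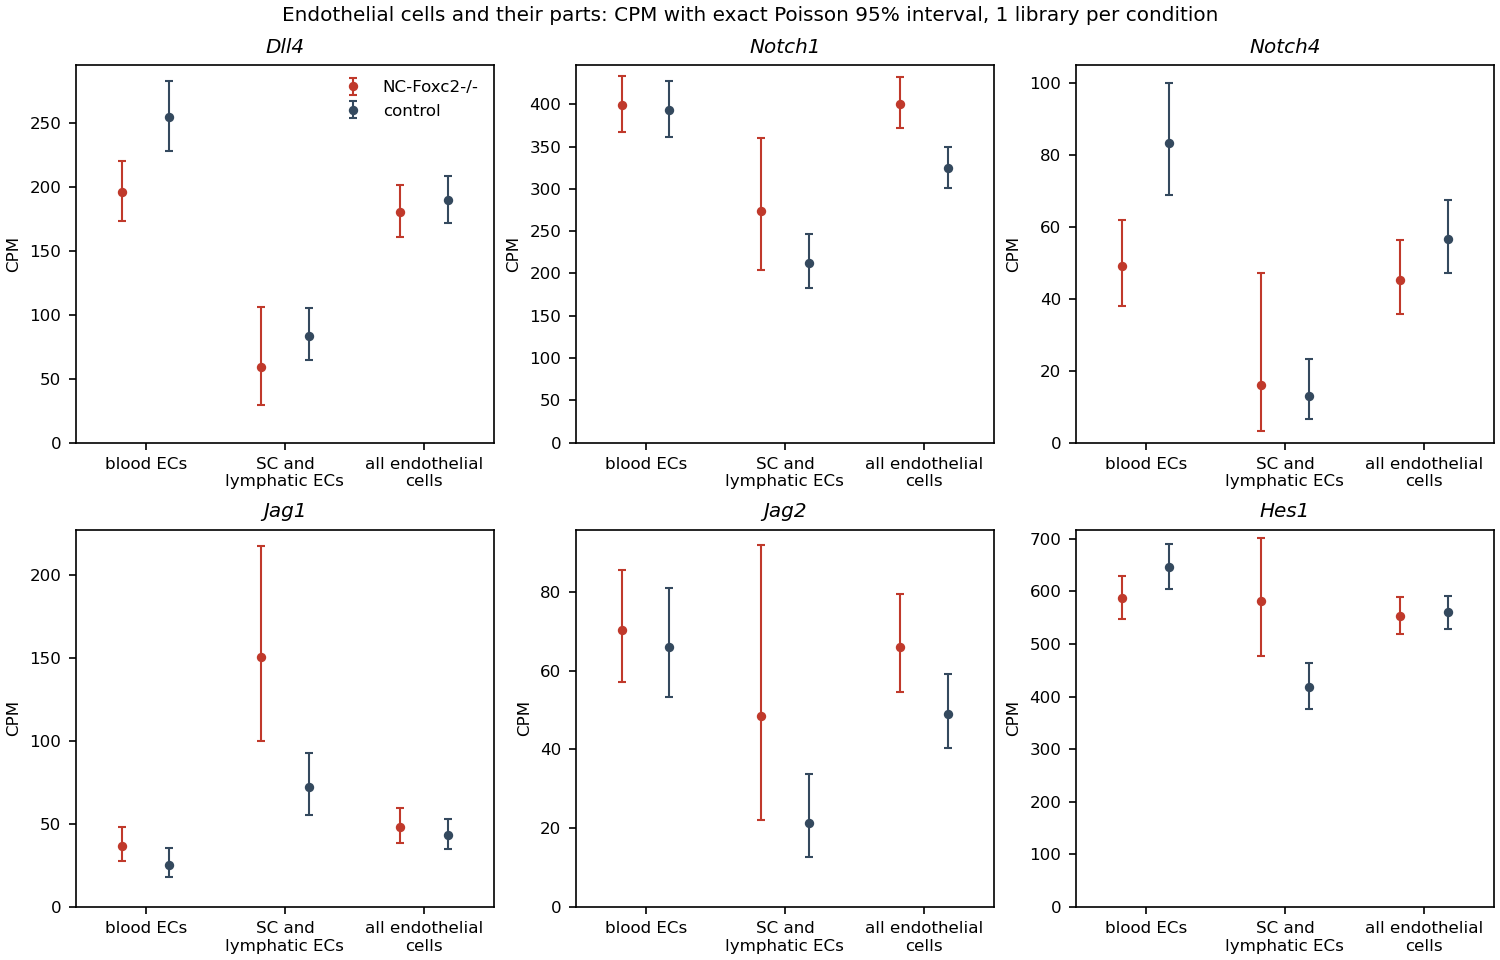
Level of 6 members in CPM (vertical axes from 0) in blood ECs, in SC and lymphatic ECs and in all endothelial cells, in NC-Foxc2-/- (red, left of each pair) and control (dark, right), with the exact Poisson 95% interval of each library. In blood ECs Dll4 stands at 195 CPM in NC-Foxc2-/- and 254 CPM in control, Notch4 at 49.0 CPM in NC-Foxc2-/- and 83.5 CPM in control, and the intervals of the libraries do not overlap in either.

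The rest of the pathway was followed in a list of 36 genes, of which 31 had at least 50 UMIs in some class. Of their 323 pairs of gene and class, 11 were higher and 10 lower, or 6.5%, near the 6.36% of all genes, with a median ratio of 1.1. Sheddases and gamma-secretase subunits, which cut the receptor, had 0 higher and 2 lower of 91 pairs, and the glycosyltransferases that set ligand preference 0 and 1 of 33. The nuclear complex had 3 higher and 0 lower of 81 pairs, ubiquitin ligases that act on ligands 1 and 0 of 23, and negative regulators 2 and 2 of 58. The other ligands and ligand-like genes had 2 higher and 3 lower of 18 pairs, and the other targets 3 and 2 of 19.

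The lowest ratio of these pairs was that of Dlk1, a membrane protein related to the Delta ligands, in endothelial cells. It had 5.800 CPM in NC-Foxc2-/- and 39.6 CPM in control (0.146 [0.0678 to 0.282], from 10 UMIs in NC-Foxc2-/- and 88 in control). Of the control UMIs, 82 lay in BEC-5, which had 0 in NC-Foxc2-/- and held 14 NC-Foxc2-/- and 43 control cells. BEC-2 went the other way, with 8 UMIs in NC-Foxc2-/- and 0 in control. SC and lymphatic ECs had 0 in both libraries. The part of the cell makeup in the endothelial Dlk1 difference was not tested. Dlk1 also gave the second highest, in smooth muscle-like cells, with 24.1 CPM in NC-Foxc2-/- and 5.01 CPM in control (4.800 [2.76 to 8.66]). The highest was Dner, a Delta-like transmembrane protein, in fibroblasts, with 16.8 CPM in NC-Foxc2-/- and 3.01 CPM in control (5.57 [2.905 to 11.97], from 100 UMIs in NC-Foxc2-/- and 10 in control). Fibroblasts were also the class with most members past the rule.

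Nrarp, a Notch target that dampens the pathway, gave the second lowest ratio, in corneal epithelial-like cells. It had 9.31 CPM in NC-Foxc2-/- and 33.9 CPM in control (0.275 [0.207 to 0.358], from 59 UMIs in NC-Foxc2-/- and 714 in control), and in limbal epithelial-like cells 7.74 CPM in NC-Foxc2-/- and 23.2 CPM in control (0.334 [0.2102 to 0.509]). In pericyte-like cells Nrarp went the other way, with 618 CPM in NC-Foxc2-/- and 315 CPM in control (1.97 [1.78 to 2.18]), just outside the rule. Values of Nrarp beyond the corneal class, and those of Hey2 and Rbpj, were chosen for mention after they were seen.

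Hey2, a vascular HEY repressor whose promoter is shown above, was higher in NC-Foxc2-/- pericyte-like cells, with 16.5 CPM against 8.03 CPM in control (2.06 [1.07 to 4.198], from 39 UMIs in NC-Foxc2-/- and 13 in control), in the class in which Hey1 had a ratio of 0.505. Rbpj, the DNA-binding partner of the cut receptor, had ratios above 1 in all 15 classes, from 1.101 in TM-3 to 2.03 in fibroblasts. It was past the rule in fibroblasts, with 136 CPM in NC-Foxc2-/- and 67.1 CPM in control, and in corneal epithelial-like cells, with 81.6 CPM in NC-Foxc2-/- and 40.6 CPM in control.

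Genes whose levels over the 16 classes were most like those of a member were found by the Pearson correlation of log2(CPM + 1), among 6203 other genes with at least 50 CPM in some class. The classes share their libraries and are not independent, so these values are a description. Dll4 had the closest partners, with Cd300lg at 0.993, Rbp7 at 0.987 and Depp1 at 0.986. Notch4 was most like She (0.907), Dcbld1 and C130074G19Rik, and Notch3 most like Slc25a25 (0.896), Epas1 and Procr. Notch1 was most like Trim8 (0.929), Bmp2k and Pim3, and Notch2 most like Mapre2 (0.939), Maged1 and Chpf. For the other ligands the closest were Arid5b for Jag1 (0.905, then Mid1ip1 and Usp53), Mall for Jag2 (0.940, then Lsr and Adipor1) and Eva1a for Dll1 (0.892, then Plscr1 and Bok). Hes1 was most like Tagln2 (0.945), Jun (0.937), an immediate early gene, and Tax1bp3, and Hey1 most like Cd200 (0.959), Zdbf2 and Il1r1. Between members the correlation was highest for Jag1 and Notch1 (0.813) and lowest for Jag2 and Notch2 (-0.209).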

How the data were processed

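Single cells of dissociated anterior eye segments were measured by droplet-based 3' sequencing (10x Genomics, version 3.1 chemistry) in 1 NC-Foxc2-/- and 1 control library. The authors ran Cell Ranger 4.0.0 on mm10, per the labels, and deposited raw UMI counts per gene and barcode. Counts were taken from the per-library matrices, because 20 genes differ in the authors' joint table, and 0 columns of per-sample values were left unused. Of 11656 NC-Foxc2-/- and 11285 control barcodes, those with at most 8% mitochondrial UMIs were kept. The libraries share 52 barcodes, which were kept apart.

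Meshwork, fibroblast and endothelial names come from cells in the study's source data, joined to the deposited cells by normalized values within 0.55 of the last printed digit, which matched 98.5% to 100% of each cluster. Its clusters may have been built with members among the variable genes. Other classes were rebuilt with scanpy 1.11.5, leidenalg 0.10.2 and igraph 0.11.9 (15 principal components, 25 neighbors, resolution 0.8, random seed 1) from 2315 variable genes without the members, and needed 3 markers for a name. After the clusters were seen, shallow clusters and clusters with over 50% doublets were left unnamed. Scrublet marked 4.77% of NC-Foxc2-/- and 3.81% of control cells as doublets, which were kept.

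UMIs were summed per class and library, with class totals of 410212 to 36784636 UMIs, and the precision of each value follows its UMIs. With 1 library per group no test was run. Scripts were tested on simulated data. Sums and intervals were computed with pandas 2.3.3, SciPy 1.17.1 and NumPy 2.4.6 under Python 3.11.15, and plots with matplotlib 3.10.9. Alternatives were other filters on cells, doublets left out, other scalings, thinning, rebuilt classes, other resolutions and other thresholds, and a comparison without SC and lymphatic ECs that was chosen after seeing the data. The members and gene lists were chosen with earlier results of these data known. All 10 members are named, with the 2 highest and 2 lowest ratios of the other pathway genes and the 3 genes most like each member. Gene positions come from GENCODE annotation of mm10 and promoter sequences from RefSeq on GRCm38.p6.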

Additional observations from a re-analysis of the deposited data

Results flagged for a closer look

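Hey1 differed in direction between classes under the same contrast. Its CPM ratio, NC-Foxc2-/- over control, was 0.466 in TM-3 and 0.447 in limbal epithelial-like cells, against 2.09 in fibroblasts, and each of these was past 2-fold. With 1 library per condition the difference between the classes was not tested. The limbal ratio rests on 7 NC-Foxc2-/- and 55 control UMIs, and the fibroblast ratio was 1.06 in cells thinned to 1000 UMIs.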

How the results depend on the processing

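No paired analysis was possible because each condition has 1 library and no replicate number, and for the same reason no replicate could be left out. The median ratio of the members was 1.19 and lay between 1.11 and 1.2 under the alternatives, except for 0.982 in cells thinned to 1000 UMIs. Under each setting on cells and scaling, this median and the count below take only pairs with at least 50 UMIs, which were fewer after thinning. The count of pairs past the rule was 10 and lay between 8 and 14 under the other settings on cells and scaling. It was 4 in cells thinned to 1000 UMIs, 16 with at least 20 UMIs, 6 with at least 100 UMIs, 23 at 1.5-fold and 3 at 3-fold. The ratio of Hey1 in limbal epithelial-like cells was 6.45 after thinning, from 2 NC-Foxc2-/- UMIs and 1 control UMI, against 0.447 before. Of 850 single ratios under alternatives, 785 stayed inside the counting interval of the reported value, and 11 of the 56 pairs whose interval excludes 1 crossed 1 under some alternative. No share of all genes with intervals that exclude 1 was computed. Without SC and lymphatic ECs the endothelial ratio of Dll4 was 0.765. The leading class was kept for 8 to 10 of the 10 members. Jag1 led in pericyte-like cells after thinning, with cells weighted equally and with rebuilt classes, Hey1 in TM-3 with rebuilt classes, and Dll1 in limbal epithelial-like cells at resolution 0.4. Without the mitochondrial filter, 1296 further cells were given the class most like their profile. TM-2 had no counterpart among the rebuilt classes, corneal epithelial-like cells had none at resolution 0.4, and melanocyte-like cells could not be compared at 5% mitochondrial UMIs. Depth limits the low members, since 74 of 160 pairs had under 50 UMIs.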
